A study of Nicotiana tabacum with 9 samples.

Results

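Plant cells enlarge when their walls yield to turgor, and the genes described here encode proteins that act on or sit in that wall. They were taken from the deposited table of leaf transcripts of tobacco (Nicotiana tabacum) by the text of the gene description, in 5 families. The 256 matching genes, of 69500 in the table, comprised 112 described as expansin, 21 as phosphate-induced protein 1, 55 as FAS1 domain, 60 as xyloglucan endo-transglycosylase and 8 as extensin domain. No gene fell into more than one family. Leaf RNA was measured in 9 libraries. Their genotype labels are K326, a flue-cured tobacco cultivar, and Y and KY, which the labels give by these letters alone, with 3 libraries per genotype. No treatment, leaf age or plant number is stated. Replicates are numbered but are not said to come from separate plants, so a p-value here reflects library-to-library spread, part of which may be technical. The title of the series places the work in a study of leaf yellowing.

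Expansins are wall proteins that loosen the contacts between cellulose and the matrix around it without cutting either polymer. Xyloglucan endo-transglycosylases cut xyloglucan, the polysaccharide that coats cellulose, and rejoin the ends, which lets the network slide or tighten. Phosphate-induced protein 1 was first described in cultured tobacco cells resupplied with phosphate, and its Arabidopsis relatives, the EXORDIUM proteins, are extracellular proteins linked to growth promoted by brassinosteroid hormones. FAS1 domains occur in fasciclin-like arabinogalactan proteins of the cell surface, and extensins are structural glycoproteins that are crosslinked into the wall. The descriptions name protein domains and not single gene products, so a gene may lack the activity of its family.

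Of the 256 genes, 78 had a mean signal of at least 1 over the 9 libraries and were tested. They were 18 expansin, 13 phosphate-induced protein 1, 22 FAS1 domain, 21 xyloglucan endo-transglycosylase and 4 extensin domain genes. A further 75 were listed at 0 in every library, 50 of them expansins, and 103 had some signal but stayed below the limit. Among those not tested, 17 reached a signal of 1 in some library. The highest was an expansin, Nitab4.5_0003603g0040, at 3.41 in KY replicate 2, 0.15 in K326 replicate 2 and 0 elsewhere. The unit of the deposited signal is not named and may or may not be per length, so levels are compared between libraries and not between genes. Where genes with the highest deposited signal are described, that signal served only to choose them. All log2 differences below are on the log2(signal + 1) scale, which understates changes of weak genes, and a gene was called at a limma adjusted p (Benjamini-Hochberg over all 16348 tested genes) below 0.05.

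The summed signal of a library ranged from 551496 to 603165, and read depth is unknown. Across tested genes KY replicate 1 correlated best with K326 replicate 3 (Pearson r = 0.954) and less well with KY replicates 2 and 3 (0.899 and 0.94), although it is labelled KY. Leaf markers (light-harvesting proteins and the small subunit of Rubisco) were abundant in all materials, with 68 of 90 tested and summed signals from 89092 to 129504 per library. Markers of dividing cells, mostly core histones, had 97 of 218 genes tested and 31 listed at 0 throughout. Their summed signal was 2286 to 4352 in K326, 1218 to 1868 in Y and 1111 to 3129 in KY, with the KY maximum in replicate 1. In bulk leaf RNA, fewer cells of a type and less RNA per cell cannot be told apart. The 5 genes of this list called lower in Y were histone genes with means of at most 0.07 in Y, against 7.41 to 77.3 in K326. The 1 called higher was described as a cyclin of type C/H/T/L. Why those histone genes were near 0 in Y was not tested.

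**Figure D1:**
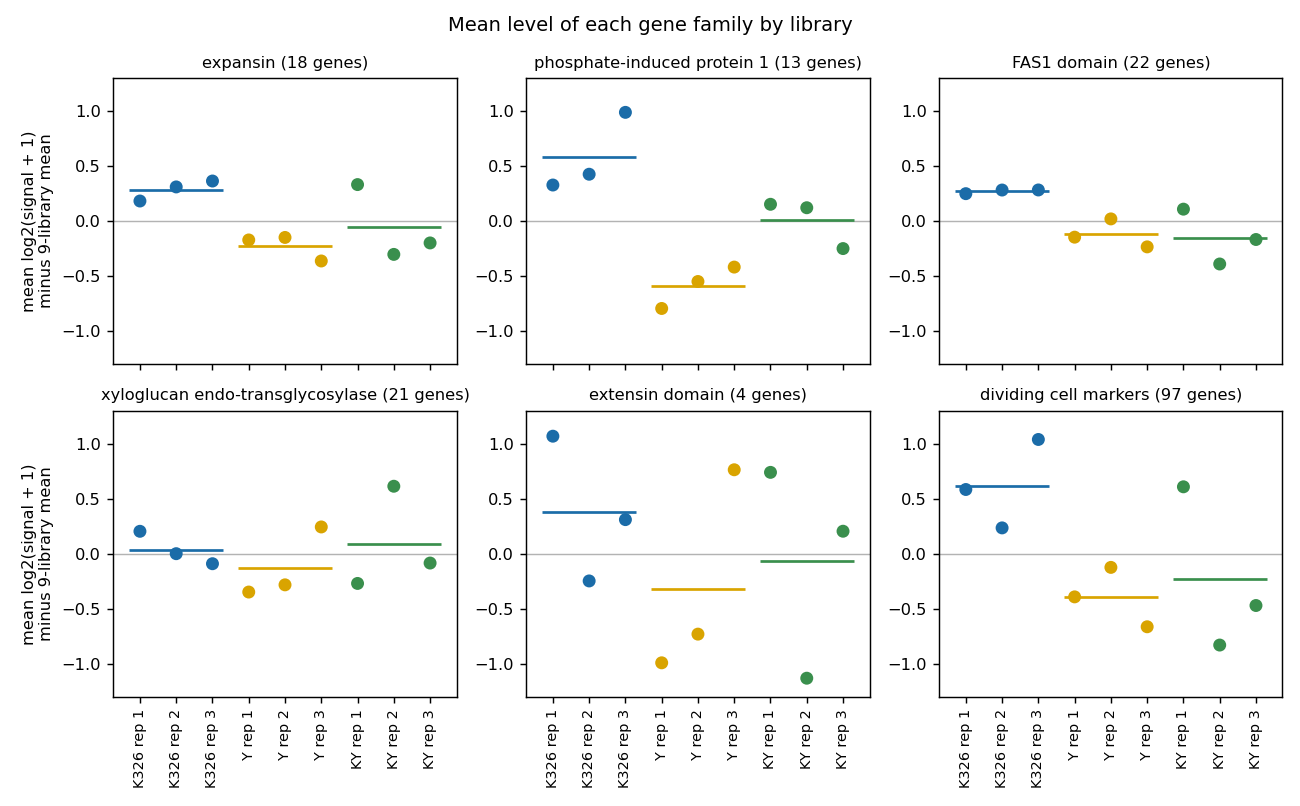
Mean log2(signal + 1) of the tested genes of each family in each library, relative to the mean over the 9 libraries, with dividing-cell markers for comparison. Points are libraries and lines are means of 3 libraries. The phosphate-induced protein 1 family lies between 0.33 and 0.99 in K326, between -0.80 and -0.42 in Y and between -0.25 and 0.15 in KY.

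The phosphate-induced protein 1 genes separated Y from K326. All 13 tested genes had a lower mean in Y than in K326, as did 60% of all tested genes, and 3 of them fell by limma, where 1.99% of all tested genes were called, 1.21% as lower and 0.777% as higher. For 12 of the 13, every Y library lay below every K326 library, against 14.7% of all tested genes, and 0 had the reverse order, which 7.41% of all tested genes had. The 12 included Nitab4.5_0001896g0050, which was at 0 in every Y library and met the limit on mean signal only through K326 and KY. At an unadjusted p below 0.05, 10 of the 13 were lower and 0 higher, against 8.18% and 4.32% of all tested genes. The median log2 difference of the family was -1.28, beside -0.08 over all tested genes. The summed signal of all 21 genes was 188 ± 40.2 in K326, 91.2 ± 14.9 in Y and 130 ± 19.3 in KY (SD, n = 3).

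The gene with the smallest p in the family was Nitab4.5_0005755g0010. Its signal was 15.2, 10.9 and 13.2 in K326 replicates 1 to 3, 4.19, 5.63 and 4.53 in Y, and 9.26, 10.96 and 7.52 in KY. Each Y library was below each K326 and KY library, while KY and K326 touched only at the edge, where KY replicate 2 exceeded K326 replicate 2. Its means were 13.1 ± 2.16 in K326 and 4.78 ± 0.753 in Y (SD, n = 3), and it fell in Y by 1.28 on the log2 scale (SE 0.19, limma adjusted p = 0.00951). The call was lost without K326 replicate 1 (adjusted p = 0.0527), without Y replicate 1 (0.0583) and without K326 replicate 3 and KY replicate 1 together (0.0574), and it was kept in the other 15 alternatives.

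A second called gene, Nitab4.5_0000786g0240, had 6.59, 5.58 and 14.0 in K326, 1.11, 1.55 and 1.48 in Y, and 3.52, 5.37 and 3.22 in KY. The libraries of the 3 materials did not overlap, with K326 highest, KY between and Y lowest. It fell in Y by 1.94 on the log2 scale (SE 0.31, limma adjusted p = 0.0136), and this call was lost without Y replicate 1 (adjusted p = 0.0767) and, narrowly, without Y replicate 2 (0.0503). The third, Nitab4.5_0000786g0210, had 15.1, 25.6 and 41.5 in K326, 3.55, 5.52 and 9.10 in Y, and 22.2, 12.6 and 17.8 in KY. Y was lowest without overlap, and K326 and KY overlapped. It fell in Y by 1.97 on the log2 scale (SE 0.40, limma adjusted p = 0.045). That call was lost in 13 of 18 alternatives (adjusted p from 0.0512 to 0.192), including the replicate block, both other scalings, and 6 of the 9 fits without a single library (K326 or KY replicates 2 and 3, Y replicates 1 and 2).

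The identifiers of these last 2 genes share their stem with that of Nitab4.5_0000786g0230. Tobacco is an allotetraploid with near-identical copies of many genes, so single-copy values depend on how reads were divided and are uncertain. The gene Nitab4.5_0000786g0230 had 19.2, 20.5 and 26.4 in K326, 10.2, 14.7 and 10.4 in Y, and 18.0, 17.7 and 19.1 in KY. Y was again lowest without overlap, and KY lay just below K326 (Y minus K326, log2 difference -0.86, SE 0.19, limma adjusted p = 0.0618). Without Y replicate 2 the adjusted p was 0.0461. Nitab4.5_0005755g0020, which shares its stem with the first called gene, was chosen after its values were seen. It had 4.85, 9.65 and 14.8 in K326, 1.55, 1.16 and 3.18 in Y, and 7.07, 4.43 and 5.33 in KY, with Y lowest without overlap (log2 difference -1.80, limma adjusted p = 0.0513), and it was called without K326 replicate 1 (adjusted p = 0.0208) and without Y replicate 3 (0.0466).

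A further pair of members mark the ends of the family, both chosen after their values were seen. Nitab4.5_0001896g0050 had no Y library above a listed 0, and had 1.73, 1.74 and 4.93 in K326 and 2.79, 0.52 and 0.34 in KY (limma adjusted p = 0.0961 for Y minus K326). With Y at 0, it met the limit on mean signal only through K326 and KY, so its calls are no separate support for a lower Y. It was called in 4 alternatives, without KY replicate 1 (adjusted p = 0.0233), without KY replicate 1 and K326 replicate 3 (0.0218), with only Y and K326 fitted (0.0441) and with a pseudocount of 0.1 (0.0256). Its log2 difference depended on the pseudocount, at -4.68 with 0.1 and -1.82 with only Y and K326 fitted at a pseudocount of 1. Nitab4.5_0000072g0530 was the only member whose Y and K326 libraries overlapped, with 9.67, 9.51 and 11.5 in K326 and 10.8, 8.75 and 10.3 in Y (log2 difference -0.03). The member with the highest signal, Nitab4.5_0003828g0030, had 35.1, 32.5 and 36.6 in K326 and 22.7, 26.5 and 30.7 in Y. Its Y libraries lay below all K326 libraries, by less than in the called members (log2 difference -0.38, SE 0.24, limma adjusted p = 0.558).

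**Figure D2:**
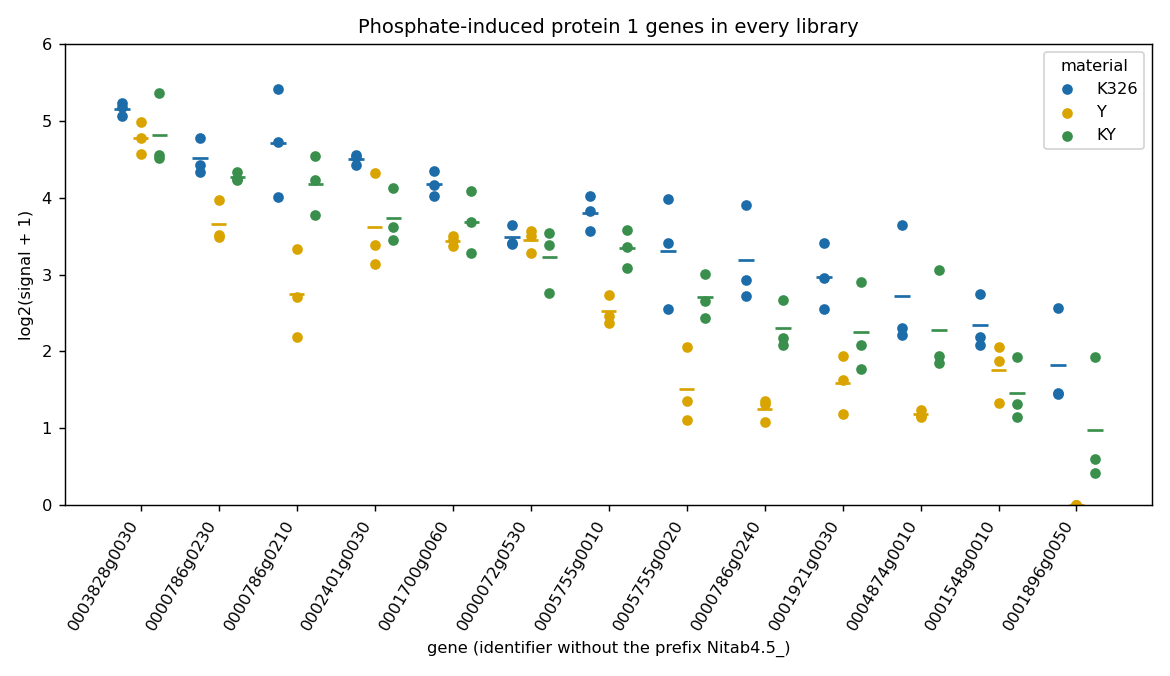
Log2(signal + 1) of the 13 tested phosphate-induced protein 1 genes in every library, ordered by mean signal. Points are libraries, short lines are means of 3 libraries, and colours are materials. Y lies below K326 without overlap in 12 of the 13 genes, and KY lies above Y without overlap in 7.

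KY stood between the other materials in this family. The KY mean was between those of K326 and Y in 11 of the 13 genes, a position held by 35.2% of all tested genes. Against K326 no member was called by limma, where 0.789% of all tested genes were called and 0.557% were called lower, although all 13 had a lower mean in KY, as did 69.4% of all tested genes. The median log2 difference was -0.54, beside -0.14 over all tested genes, and it was -0.34 under median-of-ratios scaling, where that of all tested genes was 0.02. In this comparison 5 members were lower at an unadjusted p below 0.05, as were 9.13% of all tested genes, while 0 were higher, against 2.28%. In 4 members every KY library lay below every K326 library, where 15.6% of all tested genes had libraries that did not overlap in either direction, 12.4% with KY lower and 3.21% with KY higher. Against Y, 11 of 13 had a higher mean in KY (median 0.66, beside -0.05 over all tested genes, of which 56.2% were below 0), 7 did so without overlap of the libraries (background 5.39%), 7 were higher and 0 lower at an unadjusted p below 0.05 (background 4.24% and 8.96%), and 0 were called, where 1.3% of all tested genes were. The gene Nitab4.5_0001548g0010, with the widest non-overlapping gap to K326, did not follow this order. It had 3.25, 3.54 and 5.73 in K326, 1.51, 3.17 and 2.67 in Y, and 2.80, 1.49 and 1.22 in KY, so that KY and Y overlapped and both lay below K326 (KY minus K326, log2 difference -0.88, SE 0.29, limma adjusted p = 0.308). The comparisons share libraries and are not independent of each other.

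Within K326 the family also varied. Replicate 3 was the highest K326 library in 11 of the 13 genes and the highest of all 9 libraries in 10 of them, a position it held in 11.7% of all tested genes. Replicate 3 was likewise the K326 library with the most signal of dividing-cell markers, at 4352. In KY replicates 1 to 3 the family mean was 0.15, 0.12 and -0.25 log2 units around its 9-library mean. The markers were at 0.61, -0.83 and -0.47 there. KY replicate 2 thus lay close to KY replicate 1 in the family but was the lowest KY library in the markers. By gene, KY replicate 1 was the highest KY library in 6 of the 13 family members and KY replicate 2 in 6. The part of dividing cells in the difference between Y and K326 was not tested. Without K326 replicate 3 the median difference of the family in Y was -1.08, and without any other single library it lay between -1.39 and -1.18.

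**Figure D3:**
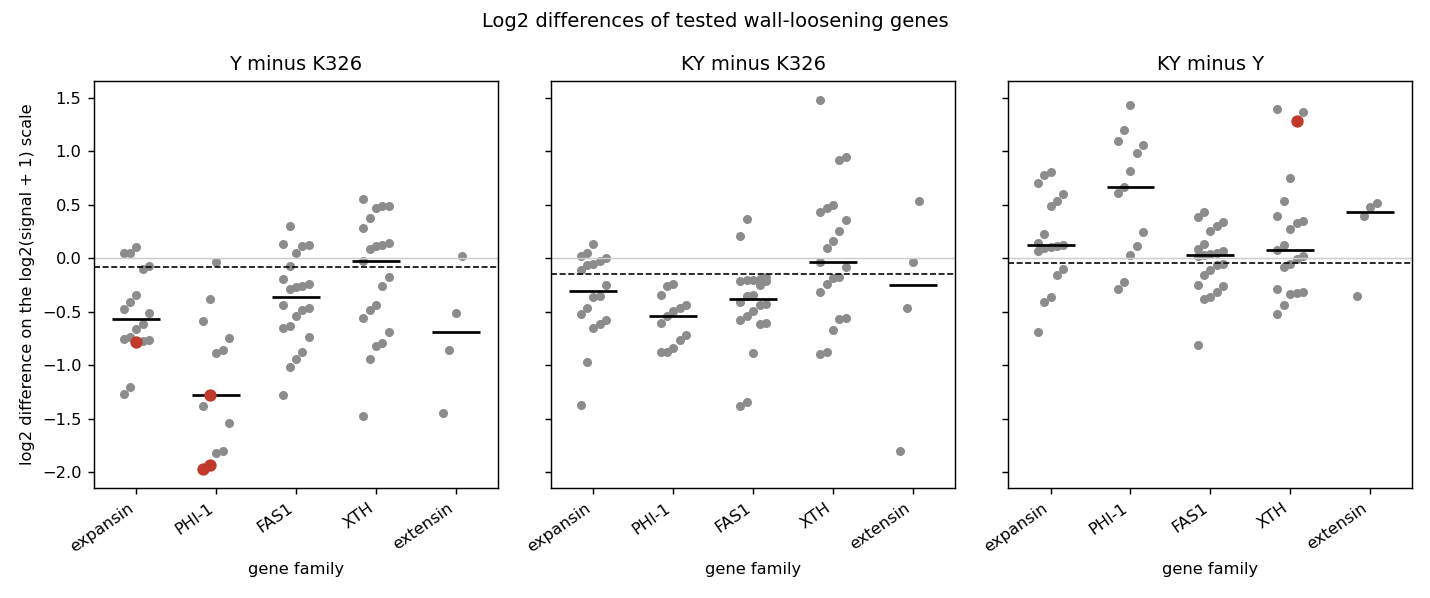
Log2 differences of the tested genes of each family on the log2(signal + 1) scale, in 3 panels, Y minus K326, then KY against K326, then KY against Y. Grey points are genes that were not called, red points are called genes, bars are family medians, and the dashed line is the median of all 16348 tested genes. PHI-1 is phosphate-induced protein 1 and XTH is xyloglucan endo-transglycosylase. In the first panel the 4 called genes are all lower in Y, 3 of them PHI-1.

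Expansin genes were mostly lower in Y, with a single call. Of 18 tested genes, 15 had a lower mean in Y than in K326 (60% of all tested genes), 8 of them without overlap of the libraries (background 14.7%). The median log2 difference was -0.57. At an unadjusted p below 0.05, 7 were lower and 0 higher, against 8.18% and 4.32% of all tested genes. One gene fell, Nitab4.5_0010278g0040. Its signal was 7.82, 8.08 and 7.06 in K326, 3.95, 4.78 and 3.42 in Y, and 8.74, 8 and 6.75 in KY. All Y libraries lay below all others, and K326 and KY overlapped. The difference between Y and K326 (-0.78, SE 0.16, limma adjusted p = 0.0491) was kept in 1 of 18 alternatives, the fit without KY replicate 1. In the other 17, which leave out each other library in turn or change the settings, the adjusted p was 0.0509 to 0.197. For KY minus Y the same gene had a log2 difference of 0.81 (SE 0.16, limma adjusted p = 0.0556), which passed under median-of-ratios scaling (adjusted p = 0.0267) and quantile normalization (0.0402).

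The expansins with the highest deposited signal had no called difference. Nitab4.5_0003761g0030 had 70.5, 83.2 and 57.8 in K326, 59.7, 44.6 and 42.9 in Y, and 74.4, 62.1 and 69.5 in KY. K326 overlapped both other materials, and KY lay above Y without overlap (KY minus Y, log2 difference 0.49, SE 0.19, limma adjusted p = 0.317). Nitab4.5_0000040g0160 had 58.8, 79.2 and 53.9 in K326, 49.0, 79.0 and 31.1 in Y, and 87.3, 40.8 and 41.2 in KY, with all materials overlapping. In Nitab4.5_0003845g0060 K326 was highest without overlap, at 39.8, 45.5 and 43.6, against 29.8, 31.2 and 22.6 in Y and 37.4, 21.8 and 32.0 in KY. Its log2 differences were -0.62 for Y and -0.52 for KY (SE 0.22, limma adjusted p = 0.28 and 0.415).

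Among KY libraries the expansins were divided. KY replicate 1 was the highest KY library in 13 of 18 genes, against 8173 of all 16348 tested genes. Relative to its 9-library mean, the family mean was at 0.33 log2 units there and at -0.30 and -0.20 in KY replicates 2 and 3. Nitab4.5_0001326g0130 shows the split, with 12.2 in KY replicate 1 and 0.67 and 1.76 in the others, beside 7.55, 6.99 and 14.4 in K326 and 4.96, 3.90 and 1.57 in Y. Y lay below K326 without overlap, and KY spanned both (log2 differences -1.27 and -1.37, SE 0.69, limma adjusted p = 0.495 for both). Over the family, KY minus K326 had 15 of 18 genes below 0, with a median of -0.30 and 0 calls. In 1 gene KY was lower without overlap (background for lower libraries 12.4%). At an unadjusted p below 0.05, 1 gene was lower and 0 higher (background 9.13% and 2.28%). Of all tested genes, 69.4% were below 0 in this comparison. Under median-of-ratios scaling the family median was -0.11 with 11 of 18 genes below 0, and under quantile normalization it was -0.17 with 10 of 18. Without KY replicate 1 the median was -0.51 and 2 expansins were called lower in KY, Nitab4.5_0001326g0130 (log2 difference -2.24, limma adjusted p = 0.0382) and Nitab4.5_0000463g0150 (-1.63, adjusted p = 0.0403). With K326 replicate 3 left out as well, no wall-loosening gene was called in this comparison. KY minus Y had a median of 0.12, which turned to -0.073 without KY replicate 1 and was 0.37 without KY replicate 2. Dividing-cell markers had the same split in KY, at 0.61 in replicate 1 and -0.83 and -0.47 in replicates 2 and 3, and their part was not tested.

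FAS1 domain genes had their highest means in K326 for 17 of 22 genes, against 47.3% of all tested genes, without any call. In Y, 17 of 22 had a lower mean than in K326 (60% of all tested genes), 12 of them without overlap (background 14.7%), with a median log2 difference of -0.36. At an unadjusted p below 0.05, 9 genes were lower and 0 higher, against 8.18% and 4.32% of all tested genes. The summed signal of the family was 480 to 503 in K326, 304 to 373 in Y and 328 to 428 in KY, so the K326 libraries lay above all others without overlap. The K326 libraries were also close to each other, with a summed signal of 490 ± 12.0 (SD, n = 3). Relative to its 9-library mean the family was at 0.25 to 0.28 in K326, -0.24 to 0.02 in Y, and 0.11, -0.39 and -0.17 in KY replicates 1 to 3. The dividing-cell markers were at 0.24 to 1.04 in K326, -0.66 to -0.12 in Y, and 0.61, -0.83 and -0.47 in KY replicates 1 to 3, and their part in the FAS1 domain differences was not tested.

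Among the members with the highest deposited signal, Nitab4.5_0001701g0170 had 64.0, 76.4 and 54.5 in K326, 34.04, 40.4 and 30.04 in Y, and 56.1, 37.2 and 37.5 in KY. Y lay below K326 without overlap, and KY replicate 1 fell within the K326 range while the other KY libraries lay with Y (Y minus K326, log2 difference -0.88, SE 0.21, limma adjusted p = 0.102). This difference was called without KY replicate 1 (adjusted p = 0.0378), as were those of Nitab4.5_0004320g0030 (0.0489) and Nitab4.5_0009174g0010 (0.0442), the last chosen after its values were seen. The spread of each gene is estimated over all 9 libraries, KY included. Nitab4.5_0009011g0010 had 78.8, 71.3 and 82.6 in K326, 55.4, 64.8 and 51.9 in Y, and 60.8, 52.1 and 46.6 in KY, with K326 highest without overlap (limma adjusted p = 0.291 for Y and 0.236 for KY). Nitab4.5_0004125g0010 had 79.7, 89.7 and 67.7 in K326, 50.9, 62.9 and 48.5 in Y, and 68.6, 58.6 and 50.7 in KY, with Y below K326 without overlap (limma adjusted p = 0.252).

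Other members of the family showed the same K326 maximum with different KY patterns. Nitab4.5_0003328g0020 had 37.4, 31.2 and 40.1 in K326, 23.7, 25.6 and 18.9 in Y, and 28.9, 22.0 and 19.5 in KY, so both other materials lay below K326 (log2 differences -0.65 and -0.62, SE 0.19, limma adjusted p = 0.193 and 0.288). In Nitab4.5_0004320g0030 KY lay above Y without overlap, at 37.4, 28.9 and 25.9 against 21.0, 24.8 and 21.1, and overlapped K326 at 36.4, 33.1 and 35.3. The widest gap was in Nitab4.5_0000163g0200, with 12.0, 11.5 and 12.7 in K326, 3.71, 4.10 and 5.47 in Y, and 12.3, 0.98 and 4.15 in KY. Its K326 libraries were tight and its KY libraries spanned the whole range (Y minus K326, log2 difference -1.28, SE 0.55, limma adjusted p = 0.388). When only Y and K326 were fitted the adjusted p was 0.0114, and without KY replicate 1 the difference between KY and K326 was called (-2.03, limma adjusted p = 0.0307).

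A pair of FAS1 genes ran the other way, and both were chosen after their values were seen. Nitab4.5_0002629g0030 had 9.05, 7.34 and 8.11 in K326 and 4.73, 17.5 and 14.6 in KY, and Nitab4.5_0006973g0030 had 7.76, 8.69 and 10.5 and 5.34, 14.2 and 14.5. In both genes KY replicate 1 was the lowest of all 9 libraries and KY replicates 2 and 3 were the highest (limma adjusted p = 0.745 and 0.837 for KY minus K326). Over the family, KY minus K326 had 20 of 22 genes below 0 (69.4% of all tested genes), with a median of -0.38 and 0 calls. Without overlap, 4 genes were lower (background 12.4%). At an unadjusted p below 0.05, 8 genes were lower and 0 higher (background 9.13% and 2.28%). Under median-of-ratios scaling the median was -0.18, where that of all tested genes moved from -0.14 to 0.02. KY minus Y had a median of 0.03, which was -0.11 without KY replicate 1, and 0 calls. In that comparison 1 gene was higher and 1 lower at an unadjusted p below 0.05 (background 4.24% and 8.96%).

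**Figure D4:**
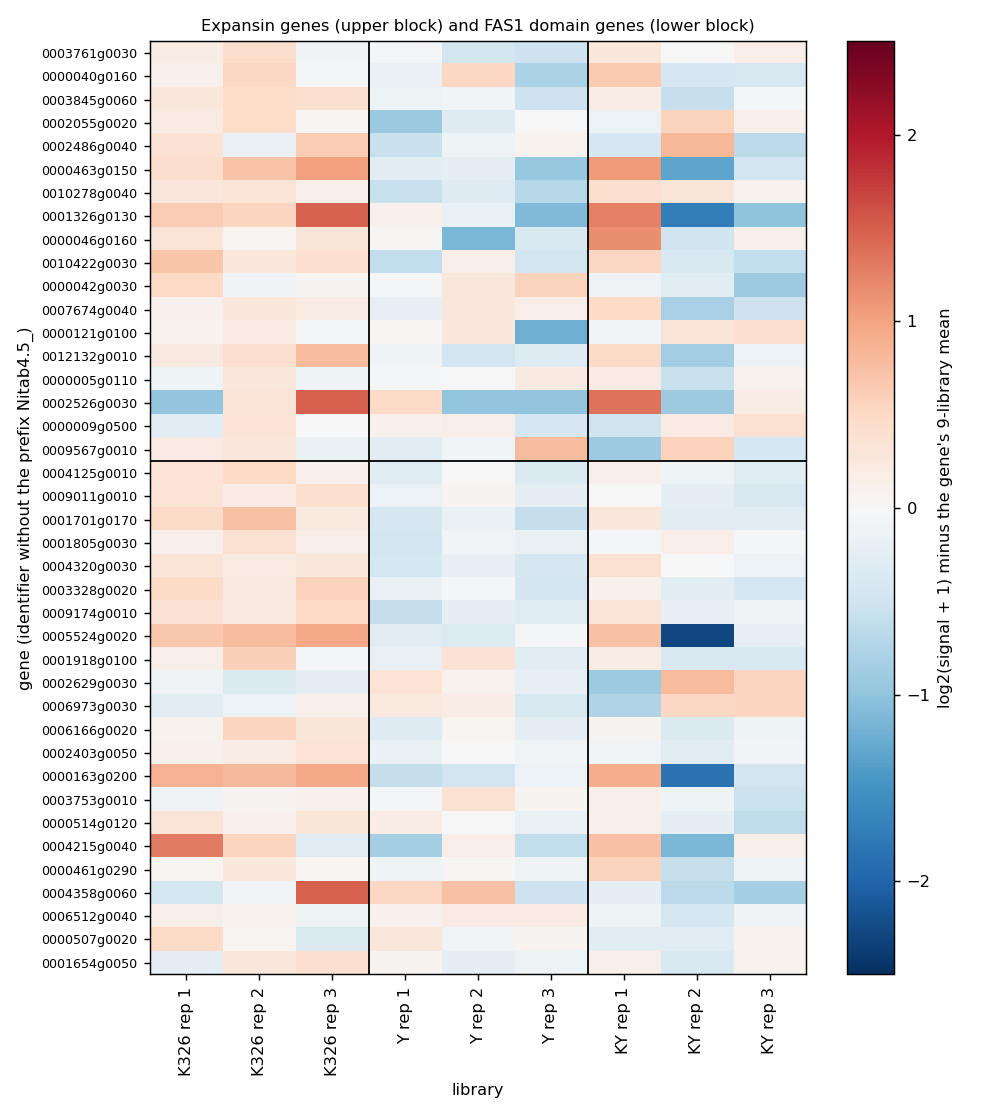
Log2(signal + 1) of the 18 tested expansin genes and the 22 tested FAS1 domain genes in each library, relative to each gene's mean over the 9 libraries, ordered by mean signal within each block. Red is above and blue is below that mean. Most rows are red in the K326 columns, and KY replicate 1 is the highest KY library in 13 expansin and 17 FAS1 domain genes.

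Xyloglucan endo-transglycosylase genes were split in the direction of their means. Of 21 tested genes, 11 had a lower and 10 a higher mean in Y than in K326. The same counts held for KY against K326. The medians were -0.02 and -0.03, which under median-of-ratios scaling became 0.06 and 0.09. At an unadjusted p below 0.05, 4 were lower and 0 higher in Y, against 8.18% and 4.32% of all tested genes. Without overlap, 5 were lower and 2 higher in Y (background 14.7% and 7.41%). For KY against K326 these counts were 1 and 0 (9.13% and 2.28%), and 3 and 1 (12.4% and 3.21%). For KY against Y they were 0 and 3 (8.96% and 4.24%), and 0 and 3 (11.2% and 5.39%). The member with the highest deposited signal, Nitab4.5_0000396g0010, had 542, 581 and 350 in K326, 488, 512 and 591 in Y, and 325, 518 and 456 in KY. All materials overlapped, and no difference was called (log2 difference 0.14 for Y and -0.17 for KY against K326, SE 0.23, limma adjusted p = 0.848 and 0.797).

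One gene of the family rose in KY against Y, Nitab4.5_0000244g0350, with 5.22, 4 and 4.89 in K326, 1.56, 1.83 and 3.88 in Y, and 6.07, 7.10 and 7.95 in KY. The 3 materials did not overlap, with Y lowest, K326 between and KY highest. The log2 difference of KY minus Y was 1.29 (SE 0.25, limma adjusted p = 0.0479), and it was the 1 wall-loosening gene called in this comparison, where 0.483% of all tested genes were called higher. The call was lost in 14 of 17 alternatives (adjusted p from 0.0503 to 0.193), including the fits that left out any single library other than Y replicate 3, without which the adjusted p was 0.00728. For Y minus K326 it was called without Y replicate 3 only (adjusted p = 0.031). Nitab4.5_0002613g0030 also had Y lowest but K326 highest, with 7.26, 7.11 and 7.69 in K326, 2.23, 5.19 and 3.14 in Y, and 6.25, 6.76 and 6.01 in KY. The 3 materials did not overlap, with KY between (Y minus K326, log2 difference -0.94, SE 0.22, limma adjusted p = 0.097), and without Y replicate 2 the adjusted p was 0.0182.

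The family was marked by 1 library. KY replicate 2 held the highest value of all 9 libraries in 10 of the 21 genes (47.6%), a place it held in 11.2% of all tested genes. Nitab4.5_0000926g0150 had 250 there, against 19.2 and 81.5 in KY replicates 1 and 3, 53.5, 40.4 and 24.8 in K326, and 50.9, 39.9 and 86.3 in Y. It was 2.90 times the highest of the other 8 libraries. In Nitab4.5_0000404g0110 that ratio was 7.97, at 20.9 against at most 2.63, and in Nitab4.5_0000521g0100 it was 2.64 and in Nitab4.5_0007701g0010 2.11. These last 3 were chosen after their values were seen. KY replicate 1 was the lowest library in 8 of the 21 genes, against 11.7% of all tested genes. Other members had the opposite pattern, such as Nitab4.5_0009032g0020, also chosen after its values were seen, with 86.1 in KY replicate 1 and 18.2 and 30.8 in replicates 2 and 3, beside 62.3, 69.8 and 75.7 in K326. It was called lower in KY than in K326 without KY replicate 1 (log2 difference -1.50, limma adjusted p = 0.0178).

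The remaining genes that the naming rule selected in this family were Nitab4.5_0007958g0010, with 92.2, 116 and 60.02 in K326, 47.3, 99.7 and 48.4 in Y, and 89.6, 33.7 and 63.3 in KY, and Nitab4.5_0001134g0070. In the first all materials overlapped. In the second K326 was highest without overlap, at 47.0, 45.1 and 52.3 against 29.9, 20.1 and 42.3 in Y and 43.7, 18.5 and 32.8 in KY (log2 differences -0.69 and -0.67, SE 0.33, limma adjusted p = 0.442 and 0.492). With KY replicate 2 left out, the median of the family for KY minus K326 was -0.27, and with KY replicate 1 left out it was 0.13, so its direction depended on which KY library was left out.

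**Figure D5:**
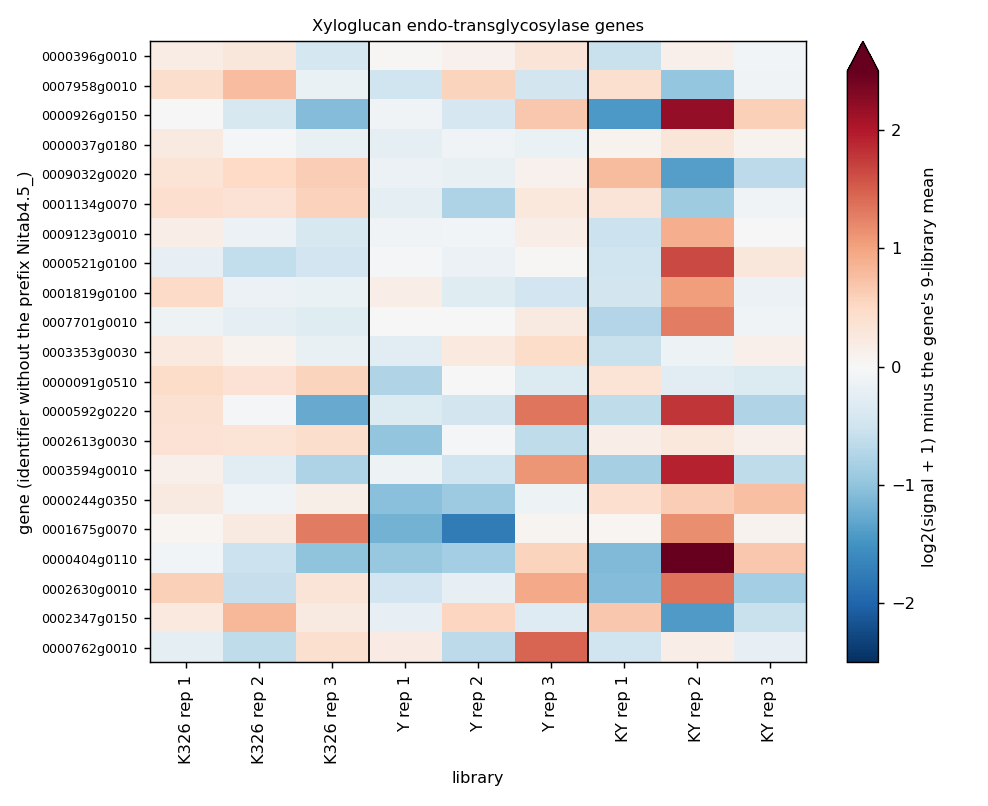
Log2(signal + 1) of the 21 tested xyloglucan endo-transglycosylase genes in each library, relative to each gene's mean over the 9 libraries and ordered by mean signal. Red is above and blue is below that mean, and the arrow on the colour bar marks values beyond it. KY replicate 2 is the highest library in 10 genes, and KY replicate 1 is the lowest in 8.

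Extensin domain genes were few and variable. Nitab4.5_0000032g0460 had 150, 42.8 and 51.5 in K326, 61.3, 50.6 and 113 in Y, and 110, 102 and 92.7 in KY. The KY libraries were close to each other and lay within the range of K326 (KY minus K326, log2 difference 0.54, SE 0.46, limma adjusted p = 0.686). Nitab4.5_0000032g0470, whose identifier shares that stem, had 13.5, 5.51 and 7.69 in K326, 1.07, 3.60 and 3.24 in Y, and 8.39, 0 and 1.05 in KY. Y lay below K326 without overlap, and KY overlapped both (log2 differences -1.45 and -1.80, SE 0.73, limma adjusted p = 0.463 and 0.404). Without KY replicate 1 the difference between KY and K326 was called (-2.71, limma adjusted p = 0.0307). Nitab4.5_0007754g0030 ranged from 0 to 18.8 within Y and from 0 to 9.06 within KY, so no material could be set apart. None of the 4 genes had an unadjusted p below 0.05 in Y, and 1 was lower in KY than in K326 (background 9.13%).

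Over the 5 families together, 4 of 78 genes fell in Y and 0 rose, 0 were called in KY against K326, and 1 rose in KY against Y. The backgrounds over all 16348 tested genes were 198 lower (1.21%) and 127 higher (0.777%) in Y. They were 91 lower (0.557%) and 38 higher (0.232%) in KY against K326, and 133 lower (0.814%) and 79 higher (0.483%) in KY against Y. For KY against K326 the split of all calls became 70 lower and 49 higher under median-of-ratios scaling, and without KY replicate 1 the total of 129 became 655, of which 5 were wall-loosening genes, all lower in KY. For Y against K326, the 4 calls became 0 without Y replicate 1, 9 without KY replicate 1, and 2 without K326 replicate 2 or 3 or KY replicate 2 or 3.

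Other genes of the wall and of growth were read from lists. The pectin list had 71 tested genes, chosen by descriptions of enzymes that modify or cut pectin. Its patterns also took in genes described by a pectinesterase inhibitor domain. In Y 1 of the 71 fell and 0 rose, where 1.21% and 0.777% of all tested genes did. That gene, Nitab4.5_0000072g0600, is described by an inhibitor domain. It had 87.2 ± 3.57 in K326 against 30.9 ± 8.95 in Y (SD, n = 3; limma adjusted p = 0.0406). In KY 0 were called against K326 or Y, where 0.789% and 1.3% of all tested genes were. The medians of the list were -0.24 for Y minus K326, -0.21 for KY minus K326 and -0.01 for KY minus Y. Of 26 cellulose genes, which make or trim cellulose, 24 had a lower mean in Y and 22 in KY than in K326 (92.3% and 84.6%, against 60% and 69.4% of all tested genes; medians -0.44 and -0.35, and 0.06 for KY minus Y). In Y, 11 of the 26 were lower without overlap (background 14.7%). In KY against K326, 5 were lower and 2 higher without overlap (background 12.4% and 3.21%). Relative to its 9-library mean the list was at 0.24 to 0.31 in K326, and in KY it was at 0.30 in replicate 1 and at -0.38 and -0.17 in replicates 2 and 3. The lower mean of the list as a whole in KY thus came from the latter pair, although single genes were low in all KY libraries. The dividing-cell markers had a KY split in the same direction, and their part was not tested. A cellulose synthase gene, Nitab4.5_0000268g0040, fell in both other materials, with means of 11.2 ± 1.44 in K326, 2.78 ± 0.795 in Y and 3.52 ± 0.627 in KY (SD, n = 3; log2 differences -1.71 and -1.44, limma adjusted p = 0.00193 and 0.0103). Another, Nitab4.5_0000447g0040, rose from 7.99 ± 0.755 to 15.1 ± 2.32 in Y (limma adjusted p = 0.0351), and no cellulose gene was called between KY and Y. Of the 26, 1 was thus called lower and 1 higher in Y, and 1 lower and 0 higher in KY against K326. The shares of all tested genes were 1.21% and 0.777% in Y, 0.557% and 0.232% in KY against K326. Between KY and Y 1.3% were called.

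The growth-signal list held rapid alkalinization factors, which are secreted peptides that restrain expansion, gibberellin-regulated proteins and small auxin-induced proteins. Of its 72 tested genes, 50 had a higher mean in Y and 57 a lower mean in KY than in K326 (medians 0.31 and -0.39). In Y 30.6% of the list was below 0, beside 60% of all tested genes. Without overlap, 10 were higher and 6 lower in Y (background 7.41% and 14.7%). At an unadjusted p below 0.05, 6 were higher and 4 lower in Y (background 4.32% and 8.18%). The share of the list below 0 in KY minus K326 was 79.2%, beside 69.4% of all tested genes. Against Y, 61 of the 72 had a lower mean in KY (84.7%, beside 56.2% of all tested genes; median -0.61), 26 were lower and 1 higher without overlap (background 11.2% and 5.39%), and 25 were lower and 2 higher at an unadjusted p below 0.05 (background 8.96% and 4.24%). A rapid alkalinization factor gene, Nitab4.5_0008329g0040, fell in Y from 30.8 ± 5.90 to 16.02 ± 1.56 (SD, n = 3; limma adjusted p = 0.0351). An auxin-induced ARG7 gene, Nitab4.5_0000307g0200, fell in KY against K326 and against Y (means of 15.1, 14.4 and 7.57 in K326, Y and KY, limma adjusted p = 0.0419 and 0.04). Another of this type, Nitab4.5_0008453g0010, fell from 15.7 ± 3.14 in Y to 5.08 ± 0.712 in KY (limma adjusted p = 0.0246). In this list 1 gene was called lower in Y, 1 in KY against K326 and 2 in KY against Y, and 0 higher. The shares of all tested genes called lower were 1.21%, 0.557% and 0.814%, and higher 0.777%, 0.232% and 0.483%. The 45 water channel genes, which pass the water that drives expansion, and the 4 laccase and dirigent genes had 0 calls in all comparisons. Of all tested genes, 1.99% were called in Y, 0.789% in KY against K326 and 1.3% in KY against Y. The water channel medians were -0.24, -0.13 and 0.01, with 1 gene higher and 7 lower at an unadjusted p below 0.05 in Y, 0 and 6 in KY against K326, and 5 and 4 in KY against Y. The shares of all tested genes were 4.32% higher and 8.18% lower in Y, 2.28% and 9.13% in KY against K326, and 4.24% and 8.96% in KY against Y. Without overlap, 16 of the 45 water channel genes were lower and 2 higher in Y (background 14.7% and 7.41%). In KY these counts were 2 and 0 against K326 (12.4% and 3.21%), and 4 and 4 against Y (11.2% and 5.39%). The laccase and dirigent medians were -0.57, 0.18 and 0.71, with 1 gene higher in KY than in Y at an unadjusted p below 0.05 and 0 in the other comparisons.

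Lists of other tissues were read beside the families. The dividing-cell list had medians of -1.01 and -0.84 for Y and KY against K326 and 0.01 for KY against Y. In Y 5 genes were called lower and 1 higher, in KY against K326 0, and in KY against Y 3 higher. Of all tested genes, 1.21% were called lower and 0.777% higher in Y. Those shares were 0.557% and 0.232% in KY against K326, and 0.814% and 0.483% in KY against Y. Of the 97 tested genes of this list, 90 had a lower mean in Y and 90 in KY than in K326 (background 60% and 69.4%). Without overlap, 59 were lower in Y and 13 in KY (background 14.7% and 12.4%). Leaf markers had medians of 0.24, 0.36 and 0.20, with 1 higher in Y, 3 higher in KY and 1 lower in KY against Y. The flower and pollen list shared 105 of its 397 genes with the expansin and extensin domain families, because expansin descriptions carry a pollen allergen domain name, and so is no separate measure of flower tissue. It had 48 tested genes and medians of -0.49, -0.38 and 0.02, with 1 gene higher and 1 lower called in Y, 0 in KY against K326 and 1 lower in KY against Y. The gene called lower in Y was the expansin Nitab4.5_0010278g0040, already reported above. The seed list had 72 tested genes and medians of -0.33, -0.33 and 0.04. In Y 6 were called lower, all described as late embryogenesis abundant protein LEA-14. In KY 0 were called against K326, and 2 higher and 2 lower against Y. Of its 245 genes, 114 to 129 had signal above 0 in each leaf library, so this list is no measure of seed tissue.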

How the data were processed

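The authors deposited 1 table, which gives an expression signal in 9 libraries for 69500 Nitab4.5 genes. The unit of the deposited signal is not named in the file headers, and library totals differ. Per the submitters' processing notes the tools included HISAT2, StringTie and RSEM (no version or role stated), and the genome build is not given in the sources used here. Of 79372 RefSeq genes (assembly ASM71507v2), 0 matched an identifier in the deposited table, so no symbols, coordinates or sequences are given. Values were transformed as log2(value + 1). The 16348 genes with a mean of at least 1 were fitted with limma 3.58.1 (R 4.3.3, mean-variance trend, 1 mean per material, all 9 libraries), with Benjamini-Hochberg adjustment over all of them and a threshold of 0.05. The procedure was tested on simulated data. The members and lists were chosen with earlier results of these data known, so lists carry no test. Named genes were every called member, the 3 members of each family with the highest mean, and, per family and comparison, the largest difference among members whose libraries do not overlap. Settings varied were the pseudocount, the filter, the scaling, the samples fitted, the trend, the replicate block and each library.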

Additional observations from a re-analysis of the deposited data

How the results depend on the processing

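Only 5 differences of wall-loosening genes were called, and each was lost under some setting. The counts of called wall-loosening genes were 4 in Y and 0 in KY against K326, and 1 in KY against Y. For Y minus K326 the count was 2 with no filter on low values, with a mean of at least 5, with median-of-ratios scaling, with quantile normalization and with the replicate block, and 0 to 9 when 1 library was left out. For KY minus K326 it was 0 to 5 when 1 library was left out. For KY minus Y it was 2 under both scalings and 0 with a pseudocount of 0.1, no filter, a mean of at least 5, only the 2 materials fitted, no trend, the replicate block, or K326 replicate 3 and KY replicate 1 left out (added after seeing the data), and 0 to 1 when 1 library was left out.

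Over all tested genes the 325, 129 and 212 calls became 156, 60 and 127 with a mean of at least 5, and 127 for KY minus Y with only those 2 materials. Leaving out 1 library gave 181 to 450, 76 to 655 and 114 to 302. With the replicate block they were 211, 85 and 134. The labels do not say whether the replicate numbers pair libraries. Deviations of same-numbered libraries from their material means had correlations between -0.166 and 0.177, and 2 of 9 libraries correlated best with their own number. Deviations from means of 3 libraries are not independent, so these values cannot decide whether libraries are paired.

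Family medians for Y minus K326 moved with no filter to -0.070 (expansin), -0.85 (phosphate-induced protein 1) and -0.071 (FAS1 domain), to -0.87 for phosphate-induced protein 1 with a mean of at least 5, and to -1.64 for extensin domain genes with a pseudocount of 0.1. For KY minus K326 they moved with no filter to -0.071 (expansin) and -0.17 (FAS1 domain), to -0.18 for FAS1 domain genes under median-of-ratios scaling, and to between -0.81 and -0.41 for phosphate-induced protein 1 when 1 library was left out. For KY minus Y the phosphate-induced protein 1 median was 0.25 with no filter, and the expansin median was -0.073 to 0.37 when 1 library was left out. The unfiltered fit adds genes with signals near 0, and the cause of the other shifts was not tested. The median of all tested genes for Y minus K326 moved from -0.08 to 0.02 under median-of-ratios scaling. Read depth is unknown, so a listed 0 sets no bound.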
